A study of Mus musculus with 16 samples.

Results

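The 7 genes described here are Ppbp, Cxcl1, Cxcl2, Cxcl3, Cxcl5, Cxcl15 and Pf4, the CXC chemokines that draw neutrophils and their platelet-type relatives. They were chosen by symbol, and all 7 were measured among the 18193 genes that had a probe set annotated to 1 symbol alone. They carried 10 of the 34945 such probe sets: 3 for Cxcl1, 2 for Cxcl15 and 1 for each other gene. Where a gene has several, the one with the highest mean leads, and the others are given beside it.

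RNA came from airway epithelial cells of C57BL/6 mice grown at an air-liquid interface, in which the apical face of the cell sheet is exposed to air. The 16 cultures form 4 groups with 4 arrays each: Mmp7-null (Mmp7-/-) scratched, Mmp7-null uninjured, wild-type scratched and wild-type uninjured. Scratched cultures carry 3 parallel lines made with a pipet tip, and all 4 groups spent 24 hours without serum before harvest. The time between scratch and harvest, how the Mmp7 deletion was made and the animals behind each culture are not given in the sources used here, so p-values measure only the spread between these cultures, which may be technical. Values are log2 intensities. Each change is a log2 fold change from limma with its standard error and a Benjamini-Hochberg adjusted p, taken across the 18193 genes; a gene is called when that p is below 0.05.

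CXC chemokines are small secreted proteins named for a pair of cysteines separated by a single residue. Those that carry a Glu-Leu-Arg motif before the first cysteine bind CXCR2 on neutrophils and bring these cells out of the blood. Epithelium and activated macrophages make Cxcl1, Cxcl2, Cxcl3 and Cxcl5, whereas Ppbp and Pf4 are best known from platelet granules, and Cxcl15 (lungkine) is made by mouse lung epithelium. Heparan sulfate holds chemokines at the cell surface, and in mouse lung injury matrilysin, the product of Mmp7, is known to shed syndecan-1 together with bound Cxcl1, which sets up a gradient for neutrophils. The arrays measured RNA and say nothing of that release step.

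All 7 genes lie next to each other on chromosome 5 in the order Cxcl5, Ppbp, Pf4, Cxcl3, Cxcl15, Cxcl1, Cxcl2, with 0 other annotated genes between the first and the last (RefSeq, GRCm38.p6). RefSeq promoter windows, which reach from 250 bases before to 50 bases after the start of a gene, were matched for 6 of the 7; Cxcl5 was not matched. The stretches below run from 150 bases before the start up to the base before it, all on the + strand. They are shown because 3 of them share a run of letters, while the fourth belongs to the gene with the largest scratch response. Capitals mark that run, GGGAATTTCCC, and the letters TATAAA. The run contains a binding site of NF-kB, the transcription factor that drives many inflammatory genes. TATAAA forms the core of a TATA box, but a match of these letters need not be one.
Cxcl1 (chr5:90891095-90891244): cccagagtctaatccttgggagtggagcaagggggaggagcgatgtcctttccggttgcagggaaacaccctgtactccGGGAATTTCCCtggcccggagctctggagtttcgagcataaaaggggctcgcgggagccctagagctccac
Cxcl2 (chr5:90903749-90903898): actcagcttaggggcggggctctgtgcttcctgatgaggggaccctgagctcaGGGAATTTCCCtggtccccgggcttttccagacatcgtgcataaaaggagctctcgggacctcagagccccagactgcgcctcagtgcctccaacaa
Cxcl3 (chr5:90785951-90786100): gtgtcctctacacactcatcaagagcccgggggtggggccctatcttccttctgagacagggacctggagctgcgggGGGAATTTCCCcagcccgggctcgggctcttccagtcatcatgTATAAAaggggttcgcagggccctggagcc
Ppbp (chr5:90768368-90768517): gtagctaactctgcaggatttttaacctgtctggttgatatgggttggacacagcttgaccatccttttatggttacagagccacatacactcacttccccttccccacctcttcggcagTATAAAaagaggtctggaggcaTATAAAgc

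The run was found by comparing the bases before the start in every set of 3 matched genes: Cxcl1, Cxcl2 and Cxcl3 shared 11 letters, and the next longest run among the 20 sets had 7. Searched on both strands, it began 71 bases before the start of Cxcl1, 97 before that of Cxcl2 and 73 before that of Cxcl3. It was in 14 of 32851 promoter windows of the same length in all (0.0426%), and these letters were not in the windows of Ppbp, Cxcl15 or Pf4. TATAAA was in 13.6% of all windows and in those of Ppbp, Cxcl3 and Cxcl15. It began 30 and again 8 bases before the start of Ppbp, 30 before that of Cxcl3 and 27 before that of Cxcl15. An AP-1 site, TGANTCA, was in 7.81% of all windows and in 1 member, Ppbp, where it began 204 bases before the start. Aligned over the windows, Cxcl2 and Cxcl3 shared 57.6% of aligned positions, Cxcl1 and Cxcl2 53.6% and Cxcl1 and Cxcl3 53.2%, and the other 12 pairs shared between 39.0% and 49.7%, the highest being Ppbp and Cxcl3. These matches describe the letters of the windows. The motifs were chosen after the sequences had been read, and none overlaps another.

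Some facts of the whole series bear on these genes. The Mmp7 probe set lay between 2.13 and 2.59 on all 16 arrays, below the background estimate of 2.77 in wild-type cultures too, so it does not check the genotype labels. That estimate is the 95th percentile of control transcripts absent from an array. Different spiked-in controls were present on different arrays: Lys on 4 Mmp7-null arrays, Trpn on 6 wild-type arrays, and Phe on 6 arrays of both genotypes. What these sets stand for is not stated. Genotypes can be compared within a set only among the Phe arrays, where there are 2 Mmp7-null arrays and 1 wild-type array in each state. Every airway epithelial marker on the list (10 of 10, among them Epcam, Krt5, Foxj1 and Scgb1a1) was above background on all 16 arrays. Their levels were not alike in all groups. On scratching 2 were called higher and 1 lower in Mmp7-null cultures, and 2 higher and 2 lower in wild-type cultures. Between genotypes 1 was higher in scratched Mmp7-null cultures, and 1 was higher and 2 were lower in uninjured ones. Of all genes, 2.27% were called higher and 2.45% lower on scratching in Mmp7-null cultures, and 2.55% higher and 2.30% lower in wild-type cultures. The shares higher and lower in Mmp7-null than in wild-type were 3.29% and 2.92% in scratched cultures. In uninjured cultures they were 2.30% and 2.50%.

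On scratching, 5 of the 7 chemokines rose in Mmp7-null cultures and the same 5 rose in wild-type cultures: Ppbp, Cxcl2, Cxcl3, Cxcl5 and Cxcl15. None of the 7 fell. Over all genes 2.27% were called higher and 2.45% lower in Mmp7-null cultures, and 2.55% higher and 2.30% lower in wild-type cultures. The median change of the 7 was 0.72 in Mmp7-null cultures, where that of all genes was -0.02, and 0.64 in wild-type cultures, where that of all genes was 0.01. All 4 scratched arrays lay above all 4 uninjured arrays for 5 members in Mmp7-null cultures (4.10% of all genes did) and for 6 in wild-type cultures (4.21% did).

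Ppbp, whose product is cut to the neutrophil-attracting form NAP-2, had the largest scratch response of the 7 in both genotypes. In Mmp7-null cultures it read 9.99, 10.20, 10.26 and 10.32 when scratched, against 6.91, 7.32, 5.85 and 5.21 when uninjured. In wild-type cultures it read 10.11, 9.67, 9.51 and 9.34 when scratched, against 5.16, 5.30, 5.49 and 4.19 when uninjured. Scratched and uninjured arrays stood far apart in both genotypes, and the 4 uninjured Mmp7-null arrays were the most spread out. The change was 3.87 in Mmp7-null cultures (SE 0.39, adjusted p = 0.00013), a 14.6-fold rise, and 4.62 in wild-type cultures (SE 0.39, adjusted p = 9.7e-06), a 24.6-fold rise. Within the Lys arrays the Mmp7-null change was 3.04 and within the Phe arrays 4.70. The uninjured Lys arrays (6.91 and 7.32) lay above the uninjured Phe arrays (5.85 and 5.21).

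**Figure D1:**
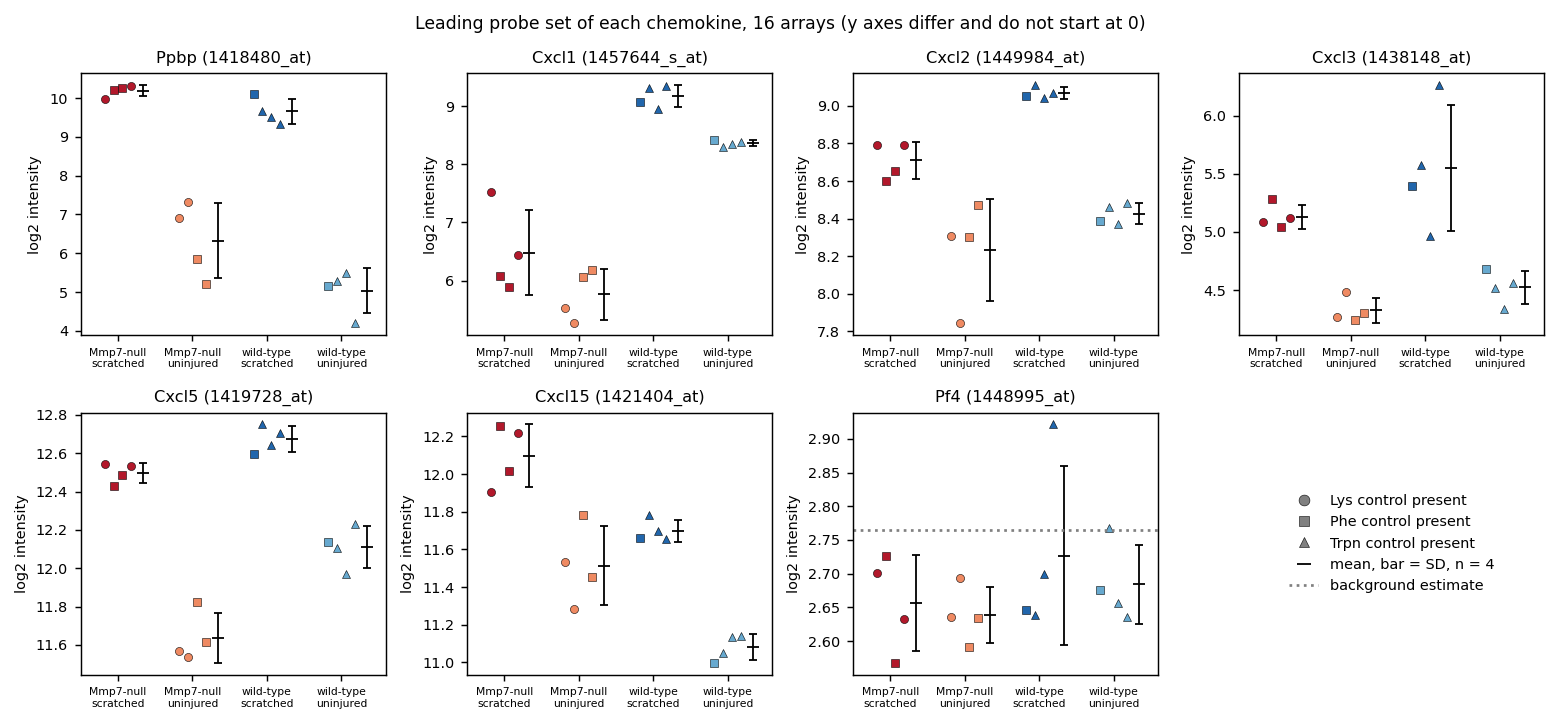
Log2 intensity of the leading probe set of each chemokine on each of the 16 arrays, by group; symbols show which spiked-in control was present, and bars give the mean ± SD (n = 4). Ppbp separates scratched from uninjured cultures in both genotypes, Cxcl1 separates Mmp7-null from wild-type cultures in both states, and Pf4 lies around the background estimate of 2.77.

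Cxcl5 (LIX), a CXCR2 ligand made by lung epithelium, rose by a smaller but tightly measured amount. It read 12.54, 12.43, 12.48 and 12.54 in scratched Mmp7-null cultures, against 11.57, 11.54, 11.82 and 11.62 in uninjured ones. Wild-type cultures read 12.59, 12.75, 12.65 and 12.70 when scratched, against 12.14, 12.11, 11.97 and 12.23 when uninjured. No scratched array overlapped an uninjured one of its genotype. The change was 0.86 in Mmp7-null cultures (SE 0.06, adjusted p = 1.2e-05) and 0.56 in wild-type cultures (SE 0.06, adjusted p = 0.00014). Within control sets Cxcl5 changed by 0.99 (Lys) and 0.74 (Phe) in Mmp7-null cultures, both called, and by 0.60 (Trpn, called) and 0.46 (Phe, adjusted p = 0.16) in wild-type cultures.

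Cxcl2 (MIP-2) and Cxcl3, close relatives of Cxcl1 that also bind CXCR2, rose in both genotypes. Cxcl2 read 8.79, 8.60, 8.65 and 8.79 in scratched Mmp7-null cultures, against 8.31, 7.84, 8.30 and 8.47 in uninjured ones. In wild-type cultures it read 9.05, 9.11, 9.04 and 9.07 when scratched, against 8.39, 8.46, 8.37 and 8.48 when uninjured. The 4 scratched wild-type arrays lay closest together, and the uninjured Mmp7-null arrays were the least alike. Cxcl2 rose by 0.48 in Mmp7-null cultures (SE 0.10, adjusted p = 0.015) and by 0.64 in wild-type cultures (SE 0.10, adjusted p = 0.0016). Fitted on the 8 Mmp7-null arrays alone, Cxcl2 had an adjusted p of 0.12. The Mmp7-null change was 0.72 within the Lys arrays (adjusted p = 0.025) and 0.24 within the Phe arrays (adjusted p = 0.71). Without Mmp7-null scratched replicate 1 and wild-type scratched replicates 3 and 4 together it was 0.45 (adjusted p = 0.064).

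Cxcl3 read 5.08, 5.28, 5.05 and 5.12 in scratched Mmp7-null cultures, against 4.27, 4.49, 4.24 and 4.31 in uninjured ones. It read 5.40, 5.58, 4.97 and 6.26 in scratched wild-type cultures, against 4.68, 4.52, 4.34 and 4.56 in uninjured ones. Groups did not overlap, but the scratched wild-type arrays ran over more than a log2 unit. The highest of them, replicate 4 at 6.26, had an actin 3′ minus 5′ difference of 2.62 on the log2 scale, a sign of RNA quality that lay between 1.53 and 1.93 on the other 15 arrays. The lowest, replicate 3 at 4.97, had the highest median intensity of all arrays, 10.2 on the linear scale. That array also had the lowest upper quartile, 6.84 on the log2 scale. Their part in the Cxcl3 values was not tested, and without these 2 arrays and Mmp7-null scratched replicate 1 Cxcl3 still rose in wild-type cultures, by 0.96 (adjusted p = 0.00053). Cxcl3 rose by 0.81 in Mmp7-null cultures (SE 0.19, adjusted p = 0.03) and by 1.03 in wild-type cultures (SE 0.19, adjusted p = 0.0065). The Mmp7-null call was lost when any 1 of its 8 arrays was left out, with adjusted p between 0.052 and 0.08, and in a fit that blocks on the spiked-in control (adjusted p = 0.057). Fitted on the 8 wild-type arrays alone, the wild-type rise had an adjusted p of 0.076. Within control sets no Cxcl3 change was called, at 0.72 (Lys) and 0.89 (Phe) in Mmp7-null and 1.13 (Trpn) and 0.72 (Phe) in wild-type cultures.

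Cxcl15, the lung epithelial chemokine, rose in both genotypes. It read 11.90, 12.25, 12.01 and 12.22 in scratched Mmp7-null cultures, against 11.53, 11.28, 11.78 and 11.45 in uninjured ones. It read 11.66, 11.78, 11.70 and 11.66 in scratched wild-type cultures, against 11.00, 11.05, 11.14 and 11.14 in uninjured ones. Scratched arrays lay above uninjured ones in each genotype. The change was 0.58 in Mmp7-null cultures (SE 0.10, adjusted p = 0.0036) and 0.62 in wild-type cultures (SE 0.10, adjusted p = 0.0015). Its second probe set, 1456428_at, gave 0.63 in Mmp7-null (SE 0.12, adjusted p = 0.015) and 0.64 in wild-type cultures (SE 0.12, adjusted p = 0.011) in limma's fit over all 45037 probe sets. Fitted on the 8 Mmp7-null arrays alone, the leading probe set had an adjusted p of 0.06. Within control sets it changed by 0.65 (Lys) and 0.51 (Phe) in Mmp7-null cultures, neither called, and by 0.60 (Trpn, called) and 0.66 (Phe, not called) in wild-type cultures.

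**Figure D2:**
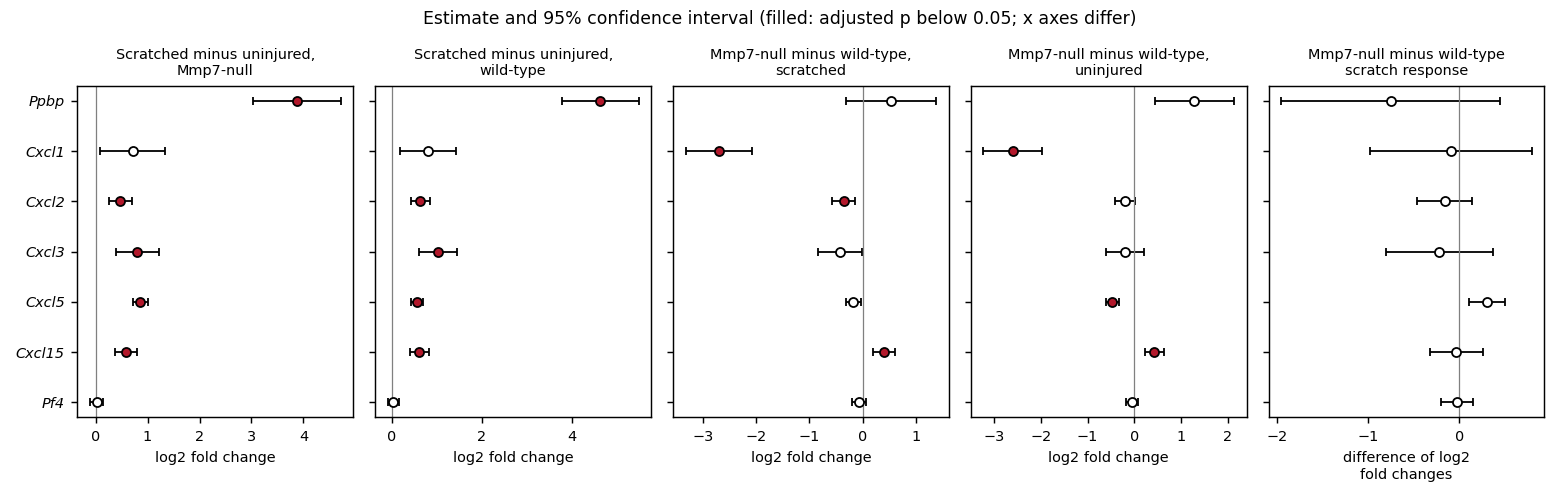
Log2 fold change of each chemokine with its 95% confidence interval in each comparison (left to right: scratch in Mmp7-null, scratch in wild-type, genotype in scratched, genotype in uninjured, difference between scratch responses); filled points have an adjusted p below 0.05. The scratch panels have 5 filled points each, led by Ppbp at 3.87 in Mmp7-null and 4.62 in wild-type, and the panel of differences has 0.

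Cxcl1 (KC), the main mouse counterpart of the human GRO chemokines, was the one epithelial member whose scratch change was not called. By its leading probe set, 1457644_s_at, it read 7.52, 6.08, 5.88 and 6.44 in scratched Mmp7-null cultures, against 5.54, 5.26, 6.06 and 6.19 in uninjured ones. In wild-type cultures it read 9.08, 9.32, 8.96 and 9.35 when scratched, against 8.42, 8.31, 8.35 and 8.38 when uninjured. The Mmp7-null groups overlapped, while scratched wild-type arrays all lay above uninjured ones. The change was 0.72 in Mmp7-null cultures (SE 0.29, 95% interval 0.09 to 1.34, adjusted p = 0.21) and 0.81 in wild-type cultures (SE 0.29, 95% interval 0.18 to 1.44, adjusted p = 0.16). Fitted on the 8 wild-type arrays alone, the wild-type change passed (adjusted p = 0.0038). Within the Phe arrays the Mmp7-null difference was -0.15, and within the Lys arrays it was 1.58 (adjusted p = 0.031). Leaving out 1 array gave Mmp7-null changes from 0.37, without scratched replicate 1, to 0.92, without scratched replicate 3, none called.

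A second Cxcl1 probe set, 1419209_at, had less spread in the Mmp7-null groups. It read 6.16, 6.30, 6.39 and 6.38 in scratched Mmp7-null cultures, against 5.50, 5.68, 5.82 and 6.23 in uninjured ones. In wild-type cultures it read 8.91, 9.21, 8.99 and 8.98 when scratched, against 8.43, 8.56, 8.34 and 8.55 when uninjured. The change was 0.50 in Mmp7-null cultures (SE 0.13, adjusted p = 0.06) and 0.55 in wild-type cultures (SE 0.13, adjusted p = 0.036) in limma's fit over all 45037 probe sets, of which 2.25% were called in Mmp7-null and 2.39% in wild-type cultures. Over the 10 probe sets of the members, 6 were called higher in Mmp7-null and 7 in wild-type cultures. The wild-type call was lost when any 1 of the 8 wild-type arrays was left out (adjusted p from 0.053 to 0.1). The Mmp7-null change passed without Mmp7-null uninjured replicate 4, at 0.64 (adjusted p = 0.0044). The probe sets disagreed most on Mmp7-null scratched replicate 1, at 7.52 by 1457644_s_at and 6.16 by 1419209_at. The third, 1441855_x_at, stayed below background on all 16 arrays, between 1.99 and 2.67. In Affymetrix names _s and _x mark probe sets that may also match other transcripts.

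**Figure D3:**
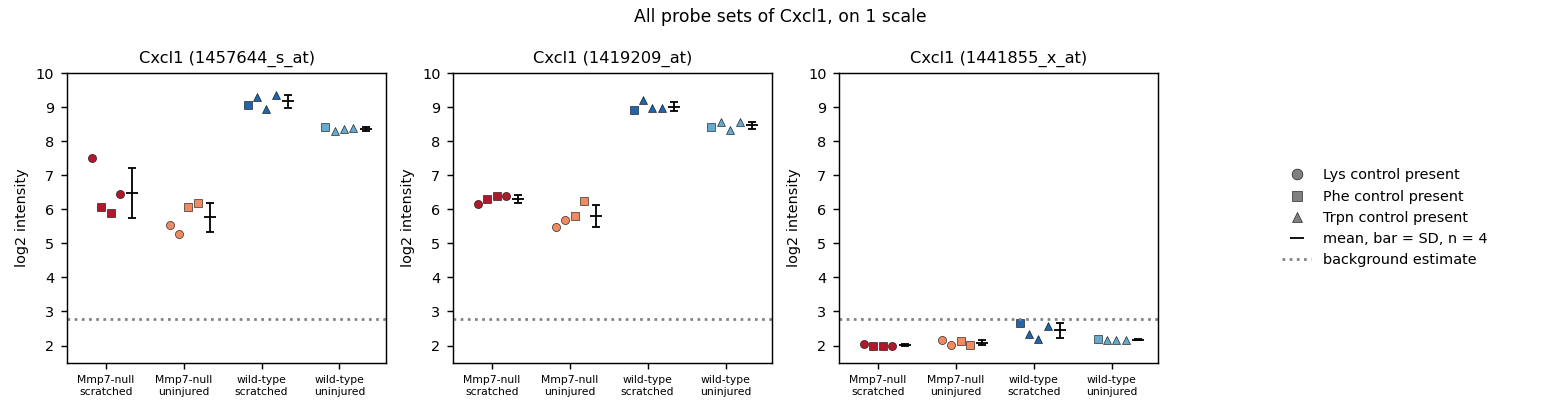
Log2 intensity of the 3 probe sets of Cxcl1 on each array, by group, on 1 scale; symbols show which spiked-in control was present and bars give the mean ± SD (n = 4). In 1457644_s_at and 1419209_at all 8 Mmp7-null arrays lie below all 8 wild-type arrays, and 1441855_x_at lies below the dotted background estimate of 2.77.

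Pf4 (platelet factor 4), a chemokine without the Glu-Leu-Arg motif, was not measured above background here. It ranged from 2.57 to 2.73 in scratched Mmp7-null, 2.59 to 2.69 in uninjured Mmp7-null, 2.64 to 2.92 in scratched wild-type and 2.64 to 2.77 in uninjured wild-type cultures. It exceeded the background estimate on 2 of 16 arrays. Its change was 0.02 in Mmp7-null cultures (95% interval -0.11 to 0.14, adjusted p = 0.88) and 0.04 in wild-type cultures (95% interval -0.08 to 0.17, adjusted p = 0.81). Ppbp, its neighbour on the chromosome and its partner in platelet granules, lay between 4.19 and 10.32 in the same arrays.

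The scratch responses of the genotypes were then compared with each other. None of the 7 chemokines passed, and over all genes 24 (0.132%) did. The Mmp7-null response minus the wild-type response was -0.75 for Ppbp (95% interval -1.95 to 0.45, adjusted p = 0.75), running from -1.12 without Mmp7-null uninjured replicate 4 to -0.42 without replicate 2 of that group. It was -0.09 for Cxcl1 (95% interval -0.98 to 0.79, adjusted p = 0.92). It was 0.30 for Cxcl5 (95% interval 0.10 to 0.50, adjusted p = 0.36). Cxcl5 was the only 1 of the 7 with an unadjusted limma p below 0.05, as had 7.79% of all genes. Cxcl2, Cxcl3, Cxcl15 and Pf4 had differences from -0.22 to -0.02. A missed threshold does not show that the genotypes responded alike.

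Mmp7-null and wild-type cultures were compared within each state. Cxcl1 was lower in Mmp7-null cultures, both scratched and uninjured, by more than 6-fold. Cxcl15 was higher in both states by about 1.3-fold, Cxcl5 was lower in uninjured cultures and Cxcl2 in scratched ones. In scratched cultures 1 of 7 members was higher and 2 were lower (over all genes 3.29% and 2.92%), and in uninjured cultures likewise 1 was higher and 2 were lower (2.30% and 2.50%). Over probe sets 1 of 10 was higher and 3 were lower in either state, where 3.22% of all probe sets were called in scratched and 2.20% in uninjured cultures. In scratched cultures the 3 lower ones were all those of Cxcl1, including 1441855_x_at, which is below background on all 16 arrays (-0.44, adjusted p = 0.0084); in uninjured cultures they were 1457644_s_at and 1419209_at of Cxcl1 and that of Cxcl5. The scratch and genotype comparisons share arrays, so their values are given side by side and not as independent results.

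For Cxcl1 the difference was -2.70 in scratched cultures (SE 0.29, adjusted p = 0.00018), which is 6.49-fold lower in Mmp7-null, and -2.60 in uninjured cultures (SE 0.29, adjusted p = 0.00044), which is 6.08-fold lower. The highest Mmp7-null array, at 7.52, lay below the lowest wild-type array, at 8.31. By 1419209_at the difference was -2.72 in scratched (adjusted p = 2.2e-07) and -2.66 in uninjured cultures (adjusted p = 5.6e-07) in the fit over all probe sets. Blocking on the spiked-in control, the leading probe set gave -2.75 in scratched (adjusted p = 0.018) and -2.65 in uninjured cultures (adjusted p = 0.039). Within the Phe arrays it gave -3.10 in scratched (adjusted p = 0.0037) and -2.30 in uninjured cultures (adjusted p = 0.04), where the lone wild-type array of each state is assumed to vary like the other groups. All scratched Mmp7-null arrays lay below all uninjured wild-type arrays. The order of groups from high to low was wild-type scratched, wild-type uninjured, Mmp7-null scratched, Mmp7-null uninjured, with overlap between the last pair.

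Cxcl15 had the opposite genotype difference. It was higher in Mmp7-null cultures by 0.40 when scratched (SE 0.10, adjusted p = 0.024) and by 0.43 when uninjured (SE 0.10, adjusted p = 0.019), and in each state all 4 Mmp7-null arrays lay above all 4 wild-type ones. Over all genes 4.19% of scratched and 5.44% of uninjured comparisons were separated in that direction. With the control block the difference was 0.53 (adjusted p = 0.074) in scratched and 0.56 (adjusted p = 0.1) in uninjured cultures, and within the Phe arrays 0.47 in scratched and 0.62 in uninjured cultures, neither called. Leaving out Mmp7-null scratched replicate 2 or 4 or any of the 4 wild-type scratched replicates but the second gave adjusted p from 0.052 to 0.076 in scratched cultures. Leaving out replicate 1 of either uninjured group gave 0.058 and 0.063 in uninjured ones. The second probe set gave 0.40 in scratched (adjusted p = 0.1) and 0.41 in uninjured cultures (adjusted p = 0.12). The uninjured difference passed without Mmp7-null uninjured replicate 2, at 0.55 (adjusted p = 0.0073).

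Cxcl5 was lower in uninjured Mmp7-null cultures, at -0.47 (SE 0.06, adjusted p = 0.0011), a 1.39-fold difference, with no overlap between the genotypes, as for 6.22% of all genes in that direction. With the control block it was -0.43 (adjusted p = 0.096), and within the Phe arrays -0.42 (adjusted p = 0.24). In scratched cultures the difference was -0.18 (95% interval -0.32 to -0.04, adjusted p = 0.14). All 4 Mmp7-null arrays were again below the wild-type ones there, as were those of 28.5% of all genes. The group order was wild-type scratched, Mmp7-null scratched, wild-type uninjured, Mmp7-null uninjured, with no overlap between neighbours.

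Cxcl2 was lower in scratched Mmp7-null cultures, at -0.36 (SE 0.10, adjusted p = 0.049). This call was lost when any 1 of the 8 scratched arrays was left out (adjusted p from 0.064 to 0.13), with the replicate block (0.051) and with the control block (-0.30, adjusted p = 0.45). In uninjured cultures it was -0.20 (95% interval -0.41 to 0.02, adjusted p = 0.39), and -0.07 without Mmp7-null uninjured replicate 2. Cxcl3 gave -0.42 in scratched (95% interval -0.83 to -0.0037, adjusted p = 0.22) and -0.20 in uninjured cultures (95% interval -0.61 to 0.22, adjusted p = 0.84); without wild-type scratched replicate 3 the scratched difference was -0.61 (adjusted p = 0.047), and without replicate 4, its highest array, it was -0.18.

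Ppbp was not called between genotypes. In uninjured cultures the Mmp7-null mean was 6.32 ± 0.97 against 5.04 ± 0.58 in wild-type (SD, n = 4 each), a difference of 1.29 (95% interval 0.44 to 2.14, adjusted p = 0.087). Leaving out Mmp7-null uninjured replicate 4 gave 1.66 (adjusted p = 0.015). With the control block the difference was 0.62 (adjusted p = 0.96), and within the Phe arrays 0.37. In scratched cultures the Mmp7-null mean was 10.19 ± 0.14 against 9.66 ± 0.33 in wild-type, a difference of 0.53 (95% interval -0.32 to 1.38, adjusted p = 0.37), and with the block it was -0.13. Pf4 gave -0.07 in scratched and -0.05 in uninjured cultures, at background.

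**Figure D4:**
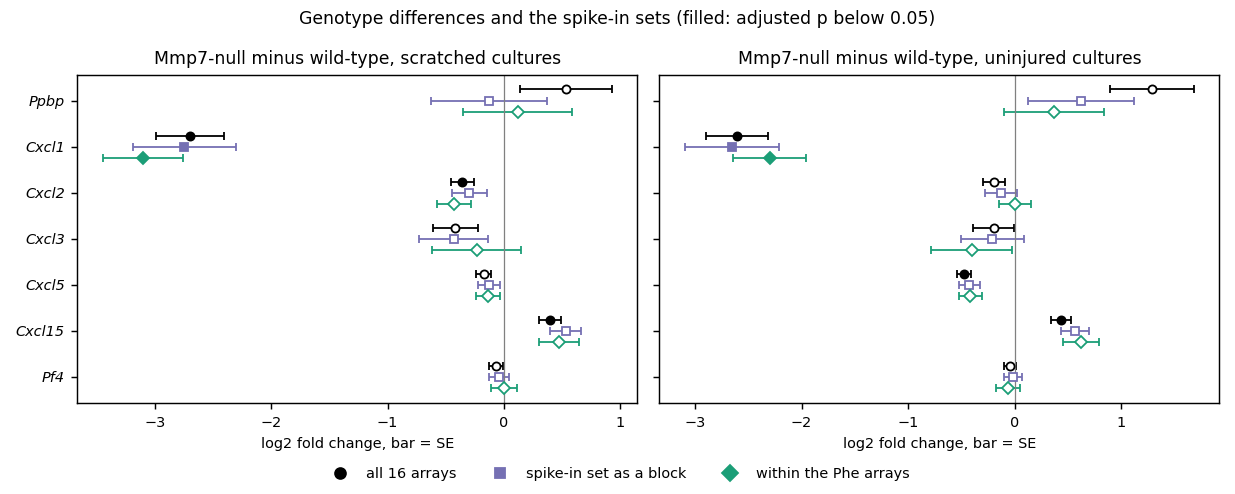
Mmp7-null minus wild-type log2 fold change of each chemokine with its SE in scratched (left) and uninjured cultures (right), over all 16 arrays, blocking on the spiked-in control, and within the Phe arrays; filled symbols have an adjusted p below 0.05. Cxcl1 is filled in all 3 settings in both states, from -3.10 to -2.30, and no other gene is.

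The members were also compared by how alike their profiles are, as the root mean square difference of log2 values centred on each gene's mean over the 16 arrays. Cxcl2 and Cxcl5 were the closest pair, at 0.18, and Ppbp and Cxcl1 the farthest, at 2.61. Among the 12561 other genes above background, those nearest to Ppbp were Ptgs2, the inducible prostaglandin synthase (1.15), Ifi27l2a (1.24), Dmbt1 (1.27), Calcb (1.32) and Fn1, fibronectin (1.32). Ppbp itself varied by 2.24 about its mean. Nearest to Cxcl1 were Cldn18, a claudin of alveolar epithelium (0.71), Igfbp2 (0.73), Spock2 (0.74), the complement factor Cfb (0.78) and Ugt2b34 (0.79). These 5 were picked for a profile like that of Cxcl1, so a lower level in Mmp7-null cultures comes with the choice. Their differences were -0.95 to -2.05 in scratched and -1.03 to -2.46 in uninjured cultures.

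Of 10 measured CXC receptors and decoy receptors 4 were above background, 1 fell on scratching in each genotype and 9 were not called. The share of all genes called lower was 2.45% in Mmp7-null and 2.30% in wild-type cultures. Cxcr2, the receptor of the Glu-Leu-Arg chemokines, averaged 2.44 in scratched Mmp7-null, 2.48 in uninjured Mmp7-null, 2.66 in scratched wild-type and 2.47 in uninjured wild-type cultures, all below background as group means. The gene that fell was Ackr3, a scavenger receptor for Cxcl12. It fell by 0.56 in Mmp7-null cultures (adjusted p = 0.00066) and by 0.39 in wild-type cultures (adjusted p = 0.0061), and was lower in scratched Mmp7-null than in scratched wild-type cultures, at -0.40 (adjusted p = 0.0043).

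Other chemokines mostly stayed uncalled. Of 8 measured CXC chemokines outside the 7, which include the interferon-induced Cxcl10 and the mucosal Cxcl17, 0 were called in either scratch comparison, by limma at an adjusted p below 0.05. Their median change was 0.01 in Mmp7-null and 0.04 in wild-type cultures, and 6 of the 8 were above background. Of 18 measured CC and CX3C chemokines 9 were above background, and 2 rose in Mmp7-null cultures and 1 in wild-type cultures. The share of all genes called higher was 2.27% in Mmp7-null and 2.55% in wild-type cultures. Ccl28, a mucosal chemokine for plasma cells, rose by 0.67 in Mmp7-null (adjusted p = 0.011) and 0.59 in wild-type cultures (adjusted p = 0.021), and Ccl5 rose by 1.19 in Mmp7-null cultures (adjusted p = 0.032).

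Part of the genes on a list of NF-kB genes and on a list of cytokines and their receptors were called. Of 21 measured NF-kB subunits, inhibitors and feedback genes, 10 rose in Mmp7-null cultures (median 0.32), and in wild-type cultures 7 rose and 1 fell (median 0.12). Shares of all genes were 2.27% higher and 2.45% lower in Mmp7-null, and 2.55% higher and 2.30% lower in wild-type cultures. All 21 were above background, against 12562 of the 18193 genes. Ptgs2 rose by 2.08 in Mmp7-null (adjusted p = 7.2e-05) and by 2.54 in wild-type cultures (adjusted p = 3.5e-06). Although on this list, Ptgs2 encodes a prostaglandin synthase, and it was picked above for a profile like that of Ppbp. Zc3h12a, an RNase that degrades inflammatory transcripts, rose by 0.76 in Mmp7-null (adjusted p = 0.0029) and 0.86 in wild-type cultures (adjusted p = 0.00066). Of 25 measured cytokines and receptors 21 were above background. On scratching 5 rose in Mmp7-null cultures, and in wild-type cultures 3 rose and 1 fell. Csf3, the granulocyte growth factor, rose by 1.07 in both genotypes, with an adjusted p of 0.0016 in Mmp7-null and 0.00094 in wild-type cultures. The largest called change of this list was that of Il1rn in Mmp7-null cultures, at 1.18 (adjusted p = 0.0047). In wild-type cultures it was that of Csf2, at 1.38 (adjusted p = 4.5e-05). Il1rap was the gene that fell in wild-type cultures, at -0.74 (adjusted p = 0.01). Between genotypes in uninjured cultures the NF-kB subunit Relb was lower in Mmp7-null, at -0.74 (adjusted p = 0.0074), and the inhibitor Nfkbie at -0.46 (adjusted p = 0.0084). Nfkbiz, the coactivator of secondary response genes, was higher by 0.25 (adjusted p = 0.028). Of the cytokine list 2 were higher and 2 lower there. Among them were Csf2 at 0.79 (adjusted p = 0.0054), Lif at -0.64 (adjusted p = 0.0072) and Il18 at 0.55 (adjusted p = 0.024). Shares of all genes were 2.30% higher and 2.50% lower. These values come from the fit without the control block, with which 57 of all genes were called in uninjured cultures.

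**Figure D5:**
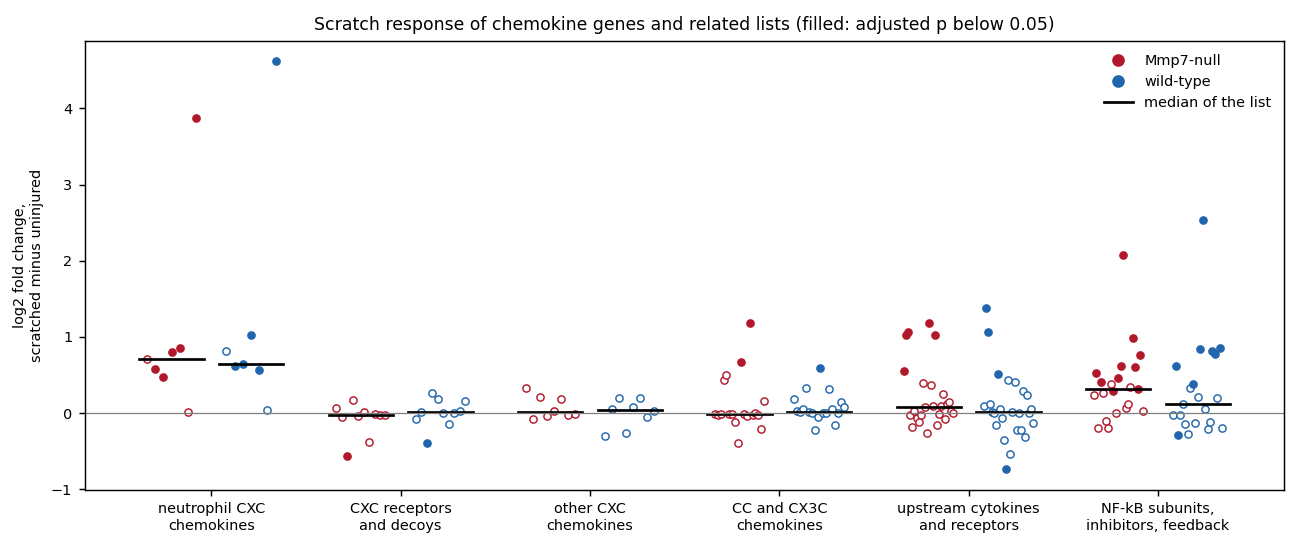
Scratched minus uninjured log2 fold change of each measured gene in 6 lists, for Mmp7-null (left of each pair) and wild-type cultures (right); filled points have an adjusted p below 0.05 and lines mark list medians. The neutrophil CXC chemokines have medians of 0.72 in Mmp7-null and 0.64 in wild-type cultures, and the other CXC chemokines 0.01 in Mmp7-null and 0.04 in wild-type.

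Among 25 measured heparan sulfate proteoglycans and chemokine-processing proteases, 15 were above background and 0 were called on scratching in either genotype. In scratched cultures 3 were lower in Mmp7-null than in wild-type ones: Ext2, an enzyme that builds heparan sulfate chains, at -0.28 (adjusted p = 0.0499), Sdc1 (syndecan-1) at -0.23 (adjusted p = 0.034) and the sheddase Adam17 at -0.19 (adjusted p = 0.037). Sdc1 averaged 12.63 ± 0.13 in scratched Mmp7-null and 12.86 ± 0.10 in scratched wild-type cultures (SD, n = 4 each). Its means were similarly apart in uninjured cultures, at 12.83 ± 0.03 in Mmp7-null and 13.04 ± 0.03 in wild-type, without a call. Adam17 (9.61 against 9.76) and Ext2 (8.14 against 8.24) were also lower in uninjured Mmp7-null cultures, not called. These differences are therefore not shown to be specific to scratched cultures. The Sdc1 probe set has an _x name, so it may also match other transcripts. In uninjured cultures Mmp14 alone was called lower, at -0.84 (adjusted p = 0.043). The share of all genes called lower in Mmp7-null was 2.92% in scratched and 2.50% in uninjured cultures. Here too the fit had no control block. With that block 252 of all genes were called in scratched and 57 in uninjured cultures.

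Markers of other cells that make these chemokines were read beside them. In bulk cultures fewer cells of a type and less RNA per cell cannot be told apart. Of 12 measured neutrophil markers 8, among them Elane, Mpo, Ngp, Camp and S100a8, were below background on all 16 arrays. Csf3r was above it on all 16 (group means 2.95 to 2.99), Mmp9 on 4, and Cxcr2 and S100a9 on 1 each. The summed intensity ran from 63.7 to 63.9 in scratched Mmp7-null, 63.3 to 66.2 in uninjured Mmp7-null, 64.2 to 71.8 in scratched wild-type and 64.0 to 65.9 in uninjured wild-type cultures. Of 10 measured platelet and megakaryocyte markers 7, among them Gp1bb, Gp5, Gp6, Gp9 and Treml1, were below background on all 16 arrays. Itga2b, an integrin subunit that defines platelets, was above it on all 16 (group means 3.53 to 3.64), Itgb3 on 6 and Gfi1b on 2. The list's sum ran from 56.3 to 58.3 in scratched Mmp7-null, 55.4 to 57.6 in uninjured Mmp7-null, 65.1 to 76.4 in scratched wild-type and 56.4 to 64.9 in uninjured wild-type cultures. Within that list Itgb3, an integrin subunit that epithelial cells can also make, averaged 4.14 in scratched wild-type cultures and 2.26 to 2.74 in the other groups.

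Among 11 measured macrophage markers 0 were called on scratching in Mmp7-null and 2 rose in wild-type cultures, Cd14 by 0.37 (adjusted p = 0.0015) and Cd68 by 1.03 (adjusted p = 0.00041), by limma at an adjusted p below 0.05. The share of all genes called higher was 2.27% in Mmp7-null and 2.55% in wild-type cultures. In the difference between scratch responses 1 of the 11 was called, with the lower response in Mmp7-null, as 0.132% of all genes were called in either direction. The summed intensity of the 11 was 19003 to 21092 in scratched against 15160 to 18547 in uninjured Mmp7-null cultures. In wild-type cultures it was 19727 to 23473 in scratched against 15321 to 18489 in uninjured ones. Nearly all of it came from Cd14 and Lyz2, with group means of 13.13 to 13.50 and of 12.85 to 13.25. Above background on all 16 arrays were 8 of the 11: Cd68 (group means 6.61 to 7.64), Csf1r (3.31 to 4.08), C1qb (3.52 to 3.69), Adgre1, Mrc1 and Msr1 (2.82 to 3.04), and Cd14 and Lyz2, which airway or alveolar epithelium can also make. Marco, C1qa and Itgax were below it on all 16. The 8 fibroblast markers summed to 141 to 166 in scratched against 72.8 to 105 in uninjured Mmp7-null cultures, and 101 to 119 in scratched against 57.9 to 69.3 in uninjured wild-type cultures. Dcn (decorin) and Pdgfra were above background on all 16 arrays and the other 6 on between 0 and 6. On scratching Dcn alone was called, rising by 1.23 in Mmp7-null (adjusted p = 0.0036) and 1.58 in wild-type cultures (adjusted p = 0.00031). Between genotypes, scratched Mmp7-null cultures were lower in Cd68, at -0.92 (adjusted p = 0.0012), and in Itgb3, at -1.53 (adjusted p = 0.0062), and uninjured Mmp7-null cultures were higher in Dcn by 1.00 (adjusted p = 0.011). The 7 endothelial markers were below background in every group mean. The part of these cell types in the chemokine changes was not tested.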

How the data were processed

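The authors deposited 1 table of intensities on a linear scale for 45101 probe sets, made with RMA per the submitters' processing notes, version not given; RMA corrects background, normalizes between arrays and summarises probes. The labels name the smaller A version of the array, whereas the table has the number of probe sets of the full version. Intensities were converted to log2 with no further normalization. Array medians ran from 9.36 to 10.2, and the number of arrays limits the precision.

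All 64 control probe sets, 932 with several symbols and 9160 with none were left out of the gene fit. With limma 3.58.1 (R 4.3.3), each gene was given 4 group means estimated from the 16 arrays together, leaving 12 residual degrees of freedom, with eBayes moderation. A second such fit took all 45037 probe sets. The fit was tested on simulated data with independent noise, without control sets or differences in array quality. That test therefore does not cover these features of the real arrays. Members and lists were chosen with earlier results of these data known. The lists held 107 measured pathway genes of 117; genes without a probe set of their own were not used here. Named genes are the members, Mmp7 and the 5 nearest profiles of Ppbp and Cxcl1. Others were drawn from up to 3 called genes per list and comparison by size, not all of which are given. Cxcr2, the marker genes and the counts of lists are given besides.

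Alternatives were the replicate block, the spike-in set as a block or within a set, the compared arrays alone, other scalings, filters, probe set rules and variance models, an offset of 16, and leaving out arrays. Deviations of same-numbered cultures from their group means had correlations from -0.22 to 0.32. As the animals are not given, these do not settle whether replicate numbers pair the samples.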

Additional observations from a re-analysis of the deposited data

Results flagged for a closer look

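Each of the 10 probe sets was checked in each group of 4 arrays for a value far from the other 3, and 1 of 40 such groups held one, where chance gives about 1 in 20. The dimmest Cxcl1 probe set, 1441855_x_at, read 2.04 on Mmp7-null scratched replicate 1, against 1.99 to 2.00 on the other 3 arrays of its group. All of these lie below the background estimate. On the same array the leading Cxcl1 probe set, 1457644_s_at, read 7.52 and 1419209_at read 6.16.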

How the results depend on the processing

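Of 610 values of single chemokines under alternatives other than leaving out 1 array, 532 kept their direction and side of the threshold, 46 lost the call, 14 gained it and 18, none of them called, turned. The causes were not tested. The Cxcl1 genotype calls held in every alternative run for the leading probe set in the gene fit and for 1419209_at in the probe set fit. In the probe set fit with the control block, 1419209_at was the 1 probe set still called in uninjured cultures, so the leading one was not. The third Cxcl1 probe set, 1441855_x_at, lost its scratched call in a fit of the 8 scratched arrays alone (-0.44, adjusted p = 0.13).

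The count of chemokines called higher on scratching in Mmp7-null cultures, 5 of 7, was 3 with only the 8 compared arrays and 2 within the Phe arrays. Its probe set count, 6 of 10, was 3 with the 8 arrays, 3 within the Lys and 2 within the Phe arrays. In wild-type cultures 5 became 1 within the Phe arrays, and the probe set count of 7 became 1 within the Phe and 4 within the Trpn arrays. Fewer arrays enter these fits. The 3 genotype calls in scratched cultures became 1 with the control block, within the Phe arrays, with the probe set of largest variance, and without 3 arrays chosen for their signal with earlier results of these data known (Mmp7-null scratched replicate 1, wild-type scratched replicates 3 and 4); leaving out 1 array gave 1 to 2. The 3 in uninjured cultures became 1 with the control block and within the Phe arrays, and the 4 probe sets became 1 and 2.

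Values that turned were Ppbp between genotypes in scratched cultures (-0.13 with the control block), Cxcl1 on scratching in Mmp7-null cultures (-0.15 within Phe) and, at background, Pf4 between genotypes in scratched cultures (0.00055 within Phe). Pf4 on scratching in wild-type cultures was -0.0030 with arrays centred on their medians, -0.0047 with array weights, -0.029 within Phe and -0.042 without the 3 arrays. The difference between responses was, for Cxcl15, 0.0091 centred, 0.021 with quantile normalization, 0.0047 with weights and 0.0080 without the 3 arrays. For Pf4 it was 0.019, 0.020, 0.042 and 0.045 in those 4 settings. For Cxcl15 1456428_at it was 0.032 centred, 0.030 with quantile normalization and 0.077 without the 3 arrays. Leaving out 1 array gave differences from -0.44 to 0.11 for Cxcl1, -0.15 to 0.092 for Cxcl1 1419209_at, -0.42 to 0.016 for Cxcl3, -0.11 to 0.056 for Cxcl15, -0.15 to 0.069 for Cxcl15 1456428_at and -0.054 to 0.041 for Pf4. It gave Pf4 scratch changes from -0.0048 to 0.048 in Mmp7-null and -0.023 to 0.072 in wild-type cultures.

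Over all genes, calls numbered 859 (79 to 1162 under alternatives) for scratch in Mmp7-null, 883 (204 to 1405) for scratch in wild-type, 1130 (223 to 1745) for genotype in scratched, 872 (42 to 1310) for genotype in uninjured cultures and 24 (5 to 100) for the difference. The lowest came within the Phe arrays, except for the difference, where centring gave it.

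With the replicate block, 5 chemokines were again called on scratching in each genotype, 2 between genotypes in scratched and 3 in uninjured cultures. Cxcl2 lost its call in scratched cultures (-0.36, adjusted p = 0.051) and Cxcl1 1419209_at gained one on scratching in Mmp7-null cultures (0.50, adjusted p = 0.049). Whether the shared numbers mark paired cultures is not known.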
